A study of Mus musculus with 5 samples.

Results

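The 6 genes followed belong to the plasminogen activator system, 6 of the 31053 genes listed in every matrix: the proteases Plat and Plau, the receptor Plaur, and the serpins Serpine2, Serpina5 and Serpinf1. They were chosen by name as a functional group and read by gene symbol, and all 6 had UMIs (unique molecular identifiers, each standing for 1 captured RNA molecule) in all 5 libraries. Cells were dissociated from ovaries of untreated C57BL6/J mice aged 2, 3, 4, 5 or 6 wk, with 1 library per age, no transgene and no treatment arm. The labels do not give the number of mice behind a library, so age, animal and preparation cannot be told apart. The libraries held 7779 to 11077 cells and 93438618 to 144609431 UMIs, with medians of 9056 to 12424 UMIs per cell, and each pair of libraries shared 18 to 35 cell barcodes.

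Plasminogen is a circulating zymogen that is cut to the broad protease plasmin by tissue-type plasminogen activator, the product of Plat, or by urokinase, the product of Plau. The urokinase receptor Plaur holds urokinase at the cell surface, while Serpine2 (protease nexin-1) and Serpina5 (protein C inhibitor) trap such proteases in inactive complexes. Serpinf1 (pigment epithelium-derived factor) has the serpin fold but does not inhibit proteases and is best known for limiting vessel growth. In the ovary the system is known for proteolysis of the follicle wall around ovulation.

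Cell names were rebuilt from marker genes, with the 6 genes and their pathway left out of the clustering, so each name is given as "-like". The first clustering gave 33 clusters and 10 named classes. Granulosa-like cells, which surround the oocyte, were the most numerous with 18124 of 48163 cells, and 1443 cells were theca-like, the androgen-making layer around the follicle. The rete ovarii-like class had 91 cells, only 5, 1 and 0 of them at 4, 5 and 6 wk, and was kept out of the tests. Levels are CPM, meaning a gene's UMIs for every 1000000 UMIs summed over the same cells. A 3-prime count such as this does not rank different genes against each other, so each gene is compared across cells only.

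Serpine2 was concentrated in granulosa-like cells and Serpina5 in theca-like cells, while Plaur had its highest levels in blood and endothelial cells. For that reason the sequences just upstream of the RefSeq starts of Serpine2, Serpina5 and Plaur are shown. Each is the 250 bases before the RefSeq gene start (GRCm38.p6), written 5′ to 3′ on the strand of the gene. Capitals mark matches on either strand to an AP-1 site, a GC box, a steroidogenic factor 1 half-site or a GATA site, whose letters are spelled out where the matches are counted.
Serpine2, chr1:79858666-79858915, minus strand: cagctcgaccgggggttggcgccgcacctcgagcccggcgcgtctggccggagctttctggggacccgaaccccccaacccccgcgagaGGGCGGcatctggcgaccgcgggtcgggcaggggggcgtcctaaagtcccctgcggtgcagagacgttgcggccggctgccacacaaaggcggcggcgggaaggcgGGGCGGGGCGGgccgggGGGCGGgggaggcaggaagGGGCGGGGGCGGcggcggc
Serpina5, chr12:104100863-104101112, plus strand: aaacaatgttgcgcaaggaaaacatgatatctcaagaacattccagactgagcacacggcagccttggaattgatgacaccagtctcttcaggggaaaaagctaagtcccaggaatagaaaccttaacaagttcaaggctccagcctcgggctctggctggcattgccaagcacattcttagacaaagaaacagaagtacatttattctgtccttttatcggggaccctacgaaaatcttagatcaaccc
Plaur, chr7:24462233-24462482, plus strand: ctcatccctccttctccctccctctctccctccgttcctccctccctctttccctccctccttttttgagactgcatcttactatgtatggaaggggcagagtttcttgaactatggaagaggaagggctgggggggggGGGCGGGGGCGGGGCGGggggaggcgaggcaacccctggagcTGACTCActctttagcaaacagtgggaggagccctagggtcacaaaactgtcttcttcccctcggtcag
The Serpine2 stretch was 78.8% G and C and held 6 GC boxes (GGGCGG), a motif found in 32.9% of 27025 mouse promoters of the same length. The Serpina5 stretch was 44.8% G and C and held none of the 4 motifs. The Plaur stretch was 59.6% G and C, with 3 GC boxes, the second and the third sharing a base, and 1 AP-1 match (TGACTCA), which 4.43% of promoters had. The Serpinf1 stretch (chr11:75422624-75422873, minus strand) held 1 half-site of steroidogenic factor 1 (AGGTCA), as did 13.8% of promoters, and 1 GATA match. The GATA letters searched, AGATAA, were in 10.3% of promoters. A match is a description of letters and not evidence of binding. Sequences were matched for 4 of the 6 genes, and none is shown for Plat or Plau. In the GRCm38 annotation used for positions Plat lies on chromosome 8 (22757727-22782844, plus strand) and Plau on chromosome 14 (20836660-20843385, plus strand). That annotation differs from the RefSeq starts for Plaur, Serpine2 and Serpinf1. Its span for Plaur begins at 24462484, while the stretch shown ends at 24462482. Its span for Serpine2 (chromosome 1, 79794197-79861180) covers the whole stretch shown. Its span for Serpinf1 (chromosome 11, 75409769-75422701) covers part of that stretch.

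**Figure D1:**
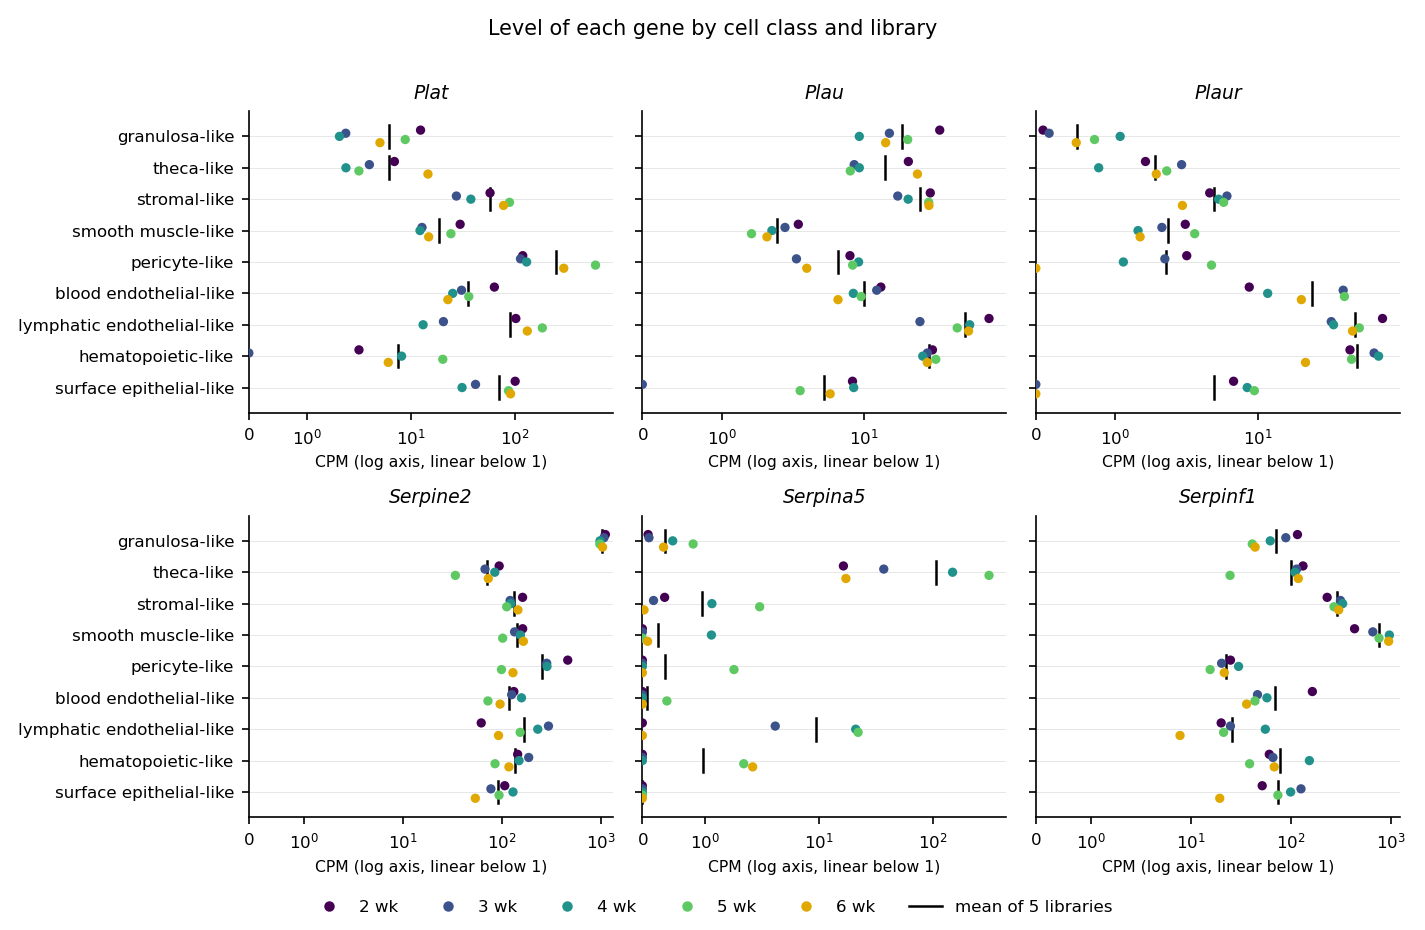
CPM of each gene (x axis, logarithmic above 1) in 9 marker-named cell classes (y axis), with 1 point per library coloured by age and a black line at the mean of the 5 libraries. Serpine2 in granulosa-like cells (977 to 1111 CPM) and Serpina5 in theca-like cells (16.4 to 312 CPM) sit apart from most other classes, while Plat spreads over pericyte-like, endothelial-like, epithelial-like and stromal-like cells.

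Each of the 9 classes was compared with the unweighted mean of the other classes on UMIs summed per class and library, with the library as a block. The fit covered 12738 genes, of which the granulosa-like contrast called 66.6% and the theca-like contrast 54.2% in either direction. The other contrasts called 47% of genes for stromal-like, 50.4% for smooth muscle-like, 37.2% for pericyte-like, 45.2% for blood endothelial-like, 35.6% for lymphatic endothelial-like, 49.1% for hematopoietic-like and 41.5% for surface epithelial-like cells. Against that background a call alone says little, and the sizes below carry the description.

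Serpine2 was the granulosa gene of the group. Granulosa-like cells had 1111, 1075, 981, 977 and 1041 CPM at 2, 3, 4, 5 and 6 wk, a mean of 1037 ± 58.7 (SD, n = 5 libraries), and held 83.39% of all Serpine2 UMIs. No other class overlapped with this range: the next, pericyte-like cells, ran from 99.2 to 463 CPM. The level was 2.98 ± 0.14 (SE) log2 units above the mean of the other classes (edgeR adjusted p = 8.459e-21) and was higher than in theca-like cells of the same library by 11.6 to 28.8 times. With each cell thinned to 3000 UMIs, 85.1% of granulosa-like cells kept at least 1 Serpine2 UMI, against 8.11% of theca-like cells and 9.56% of surface epithelial-like cells. The unthinned shares were 96.8%, 22.9% and 19.7%, at median depths of 14914, 17162 and 8806.5 UMIs.

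Granulosa markers were also found in the other classes. In surface epithelial-like cells the 6 granulosa markers summed to 10.3 to 24.4% of their level in granulosa-like cells, and Serpine2 stood below that share in all 5 libraries, at 5.18 to 13.2%. In theca-like cells it was above the marker share in 1 of 5 libraries. In stromal-like, smooth muscle-like, pericyte-like and lymphatic endothelial-like cells Serpine2 was above the marker share in 5 of 5 libraries, with a median of 26.4% against 11.1% for the markers in pericyte-like cells. The part of granulosa RNA in these levels was not tested. The pericyte-like contrast (0.57 ± 0.18 log2, edgeR adjusted p = 0.009329) lost its call without the 2 wk library, where it was 0.22 (adjusted p = 0.3436).

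Serpina5 was the theca gene. Theca-like cells had 16.4, 37.0, 149, 312 and 17.2 CPM at 2, 3, 4, 5 and 6 wk and held 93.99% of the 5457 Serpina5 UMIs. That share rests mostly on 1 library, as 4333 of the 5129 UMIs in theca-like cells were from 5 wk. Theca-like cells were highest of the 9 classes in each of 5 libraries. The other classes include surface epithelial-like cells, which had no Serpina5 UMI. The fitted size of a Serpina5 contrast therefore depends on the prior count, and only the call is given (edgeR adjusted p = 9.03e-23). Without the 5 wk library the mean level was 54.9 in place of 106 CPM. Granulosa-like cells reached at most 0.805 CPM, and none of 293 thinned surface epithelial-like cells had a Serpina5 UMI, which allows a share of cells with a UMI of up to 1.02% (3 of 293). Lymphatic endothelial-like cells were second, with 0, 4.11, 21.0, 22.0 and 0 CPM from 0, 1, 8, 23 and 0 UMIs. Theca markers in those lymphatic endothelial-like cells summed to 2.21, 20.5, 23.6, 1040 and 30.9 CPM, so that the 5 wk library carried both. At 4 wk, with Serpina5 at 21.0 CPM, the theca markers Cyp17a1 and Cyp11a1 were at 0 CPM. As a share of the theca-like level, Serpina5 there was above the theca markers in 2 of 5 libraries. The part of theca RNA in these levels was not tested. The lymphatic endothelial-like contrast (edgeR adjusted p = 4.593e-05) lost its call when the libraries were clustered without integration (edgeR adjusted p = 0.1301).

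Serpinf1 was highest in smooth muscle-like cells, at 430.5, 656, 960.3, 757 and 944.5 CPM. Stromal-like cells followed with 229, 311, 327, 268 and 299 CPM, below smooth muscle-like cells in every library. Smooth muscle-like, stromal-like and granulosa-like cells held 29.82%, 41.96% and 19.37% of its UMIs. The contrast was 3.74 ± 0.19 log2 units for smooth muscle-like cells (edgeR adjusted p = 2.283e-19) and 2.05 ± 0.21 for stromal-like cells (adjusted p = 1.154e-10). Pericyte-like cells, which share contractile genes with smooth muscle, were low with 15.4 to 29.7 CPM, 2.27 ± 0.35 log2 units below the other classes (edgeR adjusted p = 9.879e-07), and smooth muscle markers there summed to 29.9 to 54.1% of the smooth muscle-like level. Lymphatic endothelial-like cells overlapped with them at 7.72 to 55.1 CPM (-2.03 ± 0.43 log2 units, edgeR adjusted p = 0.0002177). Theca-like, hematopoietic-like, surface epithelial-like, granulosa-like and blood endothelial-like cells overlapped in Serpinf1, with means of 99.1, 76.8, 73.6, 69.96 and 69.0 CPM.

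Among the 9 classes tested, Plat was highest in pericyte-like cells, the mural cells of small vessels, at 119, 113, 129, 593 and 294 CPM. They ranked first of the 9 in each of 5 libraries and stood 3.41 ± 0.22 log2 units above the others (edgeR adjusted p = 1.696e-16). Their mean was 249 CPM, or 164 CPM without the 5 wk library. Rete ovarii-like cells, outside the 9, had 333.1 CPM pooled over libraries, against 290.6 CPM in pericyte-like cells. Within the 9, lymphatic endothelial-like (13.1 to 183 CPM), surface epithelial-like (31.0 to 100 CPM), stromal-like (27.4 to 88.6 CPM) and blood endothelial-like cells (22.7 to 63.4 CPM) followed, each overlapping with the next. The first 3 of these were also above the mean of the other classes, by 1.61 ± 0.33, 1.28 ± 0.31 and 1.24 ± 0.22 log2 units (edgeR adjusted p = 0.0001359, 0.0009914 and 1.403e-05). Granulosa-like cells had 12.4, 2.37, 2.06, 8.83 and 5.05 CPM, 2.70 ± 0.30 log2 units below (edgeR adjusted p = 2.323e-10). Because stromal-like cells were many, they held 57.11% of all Plat UMIs and pericyte-like cells 13.08%.

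Plau was spread more evenly. Its mean was 50.8 CPM in lymphatic endothelial-like cells (24.7 to 75.2), 28.7 in hematopoietic-like cells, 24.7 in stromal-like cells, 18.5 in granulosa-like cells and 14.0 in theca-like cells, and each of these overlapped with the next. It was lowest in smooth muscle-like cells, at 3.46, 2.79, 2.26, 1.62 and 2.08 CPM, 2.46 ± 0.23 log2 units below the other classes (edgeR adjusted p = 1.218e-11). Lymphatic endothelial-like, hematopoietic-like and stromal-like cells were above by 2.14 ± 0.24, 1.51 ± 0.23 and 1.24 ± 0.15 log2 units (edgeR adjusted p = 1.607e-09, 3.903e-07 and 7.216e-09). The granulosa-like contrast was 0.55 ± 0.16 (edgeR adjusted p = 0.002334) and lost its call without the 2 wk library (0.40, adjusted p = 0.05777). Granulosa-like cells, the most numerous class, held 49.09% of Plau UMIs.

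The receptor Plaur had its highest levels in blood and endothelial cells. The many stromal-like cells held 42.54% of its UMIs. Hematopoietic-like, lymphatic endothelial-like and blood endothelial-like cells held 11.09%, 6.575% and 15.49%. Hematopoietic-like cells had 44.5, 65.7, 70.6, 45.6 and 21.7 CPM, lymphatic endothelial-like cells 75.2, 32.9, 34.1, 51.7 and 46.3 CPM, and blood endothelial-like cells 8.74, 39.9, 11.8, 40.7 and 20.3 CPM. The hematopoietic-like and lymphatic endothelial-like means changed places when UMIs were summed over the libraries or when the 3 wk or the 4 wk library was left out, and blood endothelial-like cells were apart from all lower classes except surface epithelial-like cells, whose highest library had 9.49 CPM. The contrasts were 3.49 ± 0.31, 3.24 ± 0.37 and 2.23 ± 0.32 log2 units (edgeR adjusted p = 1.162e-12, 2.404e-09 and 3.117e-07). Granulosa-like cells were lowest at 0.0912 to 1.09 CPM, 3.91 ± 0.37 log2 units below (edgeR adjusted p = 5.145e-12). A Plaur UMI was found in 0.152% of thinned granulosa-like cells, against 11.3%, 11.4% and 6.09% of hematopoietic-like, lymphatic endothelial-like and blood endothelial-like cells.

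Of the 498 hematopoietic-like cells, those in 4 of 9 subclusters could be named, and among these Plaur was highest in the 35 neutrophil-like cells, at 445, 740.5, 643.5, 311 and 390.4 CPM from 3 to 17 cells a library. Macrophage-like cells (135 cells) had 79.9, 126.5, 143, 34.2 and 20.5 CPM, below neutrophil-like cells in every library. Pooled over libraries, macrophage-like cells had 55.1 CPM and the 42 dendritic-like cells 53.3 CPM. No Plaur UMI was found in the 36 natural killer-like cells. Of these, 31 held 3000 UMIs or more, and 0 of 31 allows a share of cells with a UMI of up to 9.68% (3 of 31). With cells thinned to 3000 UMIs, 70.0% of 20 neutrophil-like cells and 13.2% of 129 macrophage-like cells had a Plaur UMI. For Plau, macrophage-like cells had 119.9, 77.9, 68.7, 46.7 and 53.7 CPM, whereas neutrophil-like cells had 2 Plau UMIs in all, 13.9 CPM with an interval of 1.69 to 50.2, which overlaps that of macrophage-like cells pooled in the same way (57.4 CPM, 45.1 to 72.1). These subgroups were too small for a test.

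**Figure D2:**
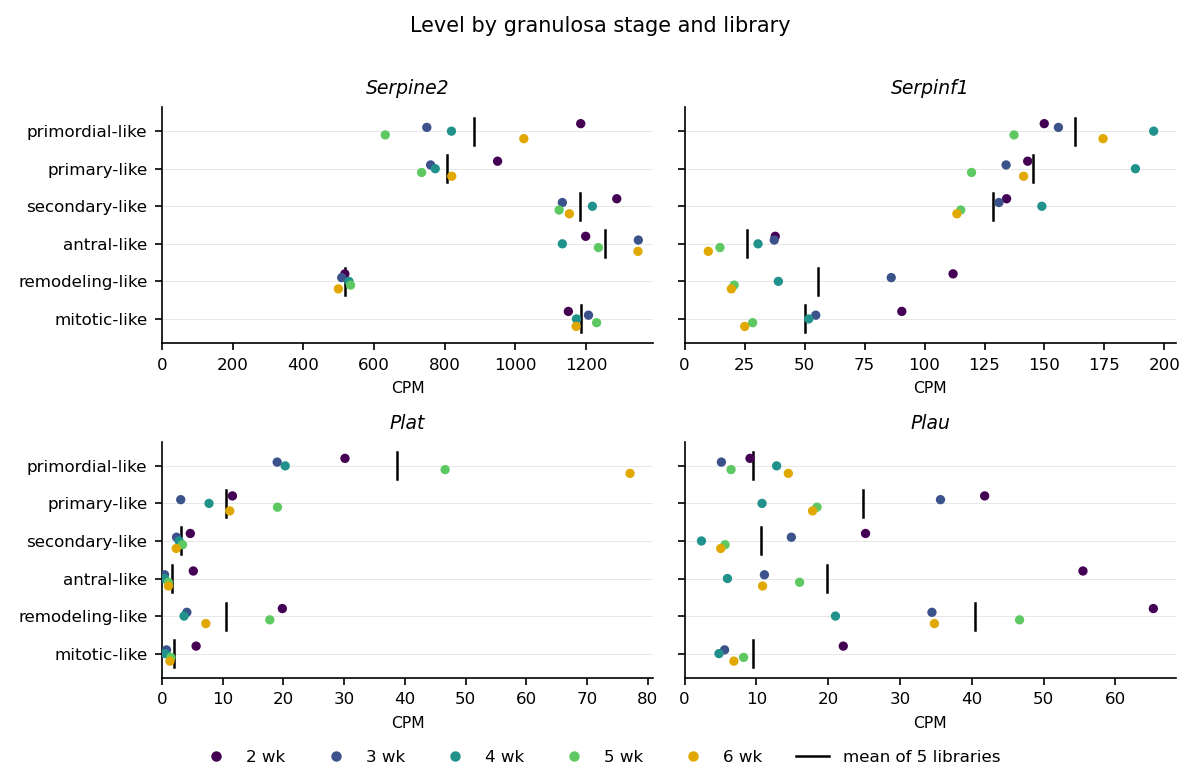
CPM (x axis, linear) of 4 genes in 6 granulosa stages (y axis), 1 point per library coloured by age and a black line at the mean of the 5 libraries. Remodeling-like cells have the lowest Serpine2 (499 to 534 CPM), the antral-like cells have little Serpinf1, and Plat is highest in primordial-like cells.

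Granulosa-like cells were clustered again and named by follicle stage, to ask how the genes differ as follicles grow and regress. Primordial-like cells were 1 cluster of 807 cells with 4 of 6 markers detected, led by Ifi204, Mgp, Mndal and Angptl6. Secondary-like cells were 1 cluster of 937 cells, also with 4 of 6 markers detected. Neither cluster had a marker of its stage among its top 10 genes. The top genes of the secondary-like cluster included Mcm4, Mcm3, Mcm2 and Mcm6, which are genes of DNA replication. The part of the cell cycle in the contrasts with secondary-like cells was not tested. Remodeling-like cells carry the markers the study assigned to remodeling follicles, those that lose their oocyte and most granulosa cells in the juvenile ovary, and that marker list was drawn from these libraries. A cluster of 1961 cells, nearest to the secondary list with 5 of its 6 markers detected, could not be named and stayed out of the tests. Of the 6 genes, 4 passed the filter on low counts in this fit of 12971 genes, and Plaur and Serpina5 did not. The share of genes called was 33.9% for primary-like against primordial-like, 25.4% for secondary-like against primary-like, 41.7% for antral-like against secondary-like, 50.9% for remodeling-like against secondary-like and 35.5% for remodeling-like against antral-like cells.

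With each stage taken as a whole, Serpine2 set remodeling-like cells apart from the other stages. Remodeling-like cells had 518, 509, 529, 534 and 499 CPM and lay below every library of every other stage. Antral-like cells had 1199, 1348, 1133, 1235 and 1347 CPM, secondary-like cells 1287, 1133, 1218, 1124 and 1153 CPM, and mitotic cells 1150 to 1230 CPM, all overlapping. Primary-like cells were lower, at 949.7, 760.2, 773, 735 and 820.1 CPM. The difference was 0.61 ± 0.10 log2 units for secondary-like over primary-like cells (edgeR adjusted p = 8.828e-05) and -1.34 ± 0.11 for remodeling-like against antral-like cells (edgeR adjusted p = 6.587e-10). Antral-like against secondary-like cells gave 0.15 ± 0.10 (edgeR adjusted p = 0.2469), and primary-like against primordial-like cells -0.07 ± 0.10 (adjusted p = 0.6501).

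The stages were not uniform in Serpine2. Among antral-like cells, cluster 8, led by Inhba, Cyp11a1 and the aromatase gene Cyp19a1, had 1234, 1863, 1720, 1639 and 1667 CPM, and cluster 13, led by Nppc, had 1324, 1575, 1483, 1532 and 1726 CPM. Cluster 0, led by Vpreb3, had 1167, 1087, 960.6, 1043 and 1001 CPM, below both in each of 5 libraries. Within primary-like cells, cluster 6 had 875 to 1125 CPM and cluster 3 had 535 to 743 CPM, and these did not overlap. Both remodeling-like clusters were low: 499 to 585 CPM in cluster 1, led by S100a6 and Gpx3, and 437, 425.5 and 457 CPM in cluster 7 at 4, 5 and 6 wk, where it had 221 to 556 cells. The range of cluster 1 overlapped with that of primary-like cluster 3, so single clusters were not separated as the stages were. Cluster 7 had only 2 cells at 2 wk and 19 cells at 3 wk, with 1169 and 579 CPM. The clusters were cut from the same cells, so these values carry no test.

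Serpinf1 marked the preantral stages. Primordial-like cells had 149.9, 156, 195.5, 137 and 174 CPM, primary-like cells 143, 134, 188, 119.6 and 141 CPM, and secondary-like cells 134, 131, 149, 115 and 113.5 CPM, with no call between neighbours. Antral-like cells had 37.8, 37.4, 30.6, 14.8 and 9.89 CPM, against secondary-like cells a log2 difference of -2.35 ± 0.29 (edgeR adjusted p = 4.681e-07) with no overlap. Remodeling-like cells had 112, 86.1, 39.1, 20.7 and 19.5 CPM, also below secondary-like cells (-1.64 ± 0.30, edgeR adjusted p = 6.067e-05). Remodeling-like and antral-like cells differed by 0.72 ± 0.30, which did not pass (edgeR adjusted p = 0.06672) but did under DESeq2 (0.91, adjusted p = 0.01121).

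Plat was highest at the start. Primordial-like cells had 30.1, 19.0, 20.3, 46.6 and 77.1 CPM, primary-like cells 11.6, 3.09, 7.75, 19.0 and 11.2 CPM, secondary-like cells 2.35 to 4.67 CPM and antral-like cells 0.406 to 5.16 CPM. Each step down held in 5 of 5 libraries as far as secondary-like cells, by -1.90 ± 0.38 (edgeR adjusted p = 0.0003321) and -1.60 ± 0.48 log2 units (edgeR adjusted p = 0.01521). Without the 5 wk library the second step was -1.41 (edgeR adjusted p = 0.07147). Remodeling-like cells had 19.8, 4.10, 3.64, 17.8 and 7.22 CPM, above antral-like cells in 5 of 5 libraries (2.78 ± 0.45 log2 units, edgeR adjusted p = 2.525e-05). The 8 immediate-early and stress genes summed to 10050 to 14800 CPM in primordial-like and 6309 to 12300 CPM in remodeling-like cells, against 3429 to 7755 CPM in primary-like cells, and their part in the Plat difference was not tested.

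Plau had its highest mean in remodeling-like cells, at 65.3, 34.5, 21.0, 46.7 and 34.8 CPM. They were above primary-like cells, the next stage, in 4 of 5 libraries, and the ranges overlapped. The same libraries gave 55.5, 11.1, 5.97, 16.0 and 10.9 CPM in antral-like cells and 25.2, 14.9, 2.36, 5.64 and 5.04 CPM in secondary-like cells, lower in 5 of 5 libraries each. The difference was 1.32 ± 0.26 log2 units from antral-like cells (edgeR adjusted p = 0.0002715) and 2.03 ± 0.32 from secondary-like cells (edgeR adjusted p = 7.374e-06). Primary-like cells, at 41.8, 35.6, 10.8, 18.4 and 17.8 CPM, were above primordial-like cells in 4 of 5 libraries (1.84 ± 0.42, edgeR adjusted p = 0.001251) and above secondary-like cells in all 5 (1.18 ± 0.32 in size, edgeR adjusted p = 0.00771). Both comparisons of remodeling-like cells, taken as a whole, thus gave higher Plau and Plat and lower Serpine2. Without the 5 wk library the Plat difference from secondary-like cells was 1.27 (edgeR adjusted p = 0.07877). The 2 remodeling-like clusters differed. Pooled over libraries, cluster 1 had 40.5 CPM of Plau and 11.2 CPM of Plat. Cluster 7, nearly all from 4, 5 and 6 wk, had 17.6 and 3.64 CPM. Pooled secondary-like cells had 14.5 and 3.38 CPM, and antral-like cells 14.5 and 1.18 CPM. These pools differ in age, as 296 and 256 of the 937 secondary-like cells came from 2 and 3 wk. At 4, 5 and 6 wk alone, Plau was at 2.36, 5.64 and 5.04 CPM in secondary-like cells. In antral-like cells it was at 5.97, 16.0 and 10.9 CPM at those ages. Smooth muscle markers summed to 40.8 to 219 CPM in remodeling-like and 16.8 to 28.2 CPM in antral-like cells. Smooth muscle-like cells themselves had 1.62 to 3.46 CPM of Plau and 12.2 to 29.7 CPM of Plat, and the part of their RNA in these differences was not tested.

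Leaving the library block out of the stage fit took the calls among the 4 genes from 13 of 20 to 8 of 20. The 5 calls lost were 3 of Plau and 2 of Plat. Calls summed over all genes fell by a larger share, as counted in the last section, so the loss was not particular to these genes.

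**Figure D3:**
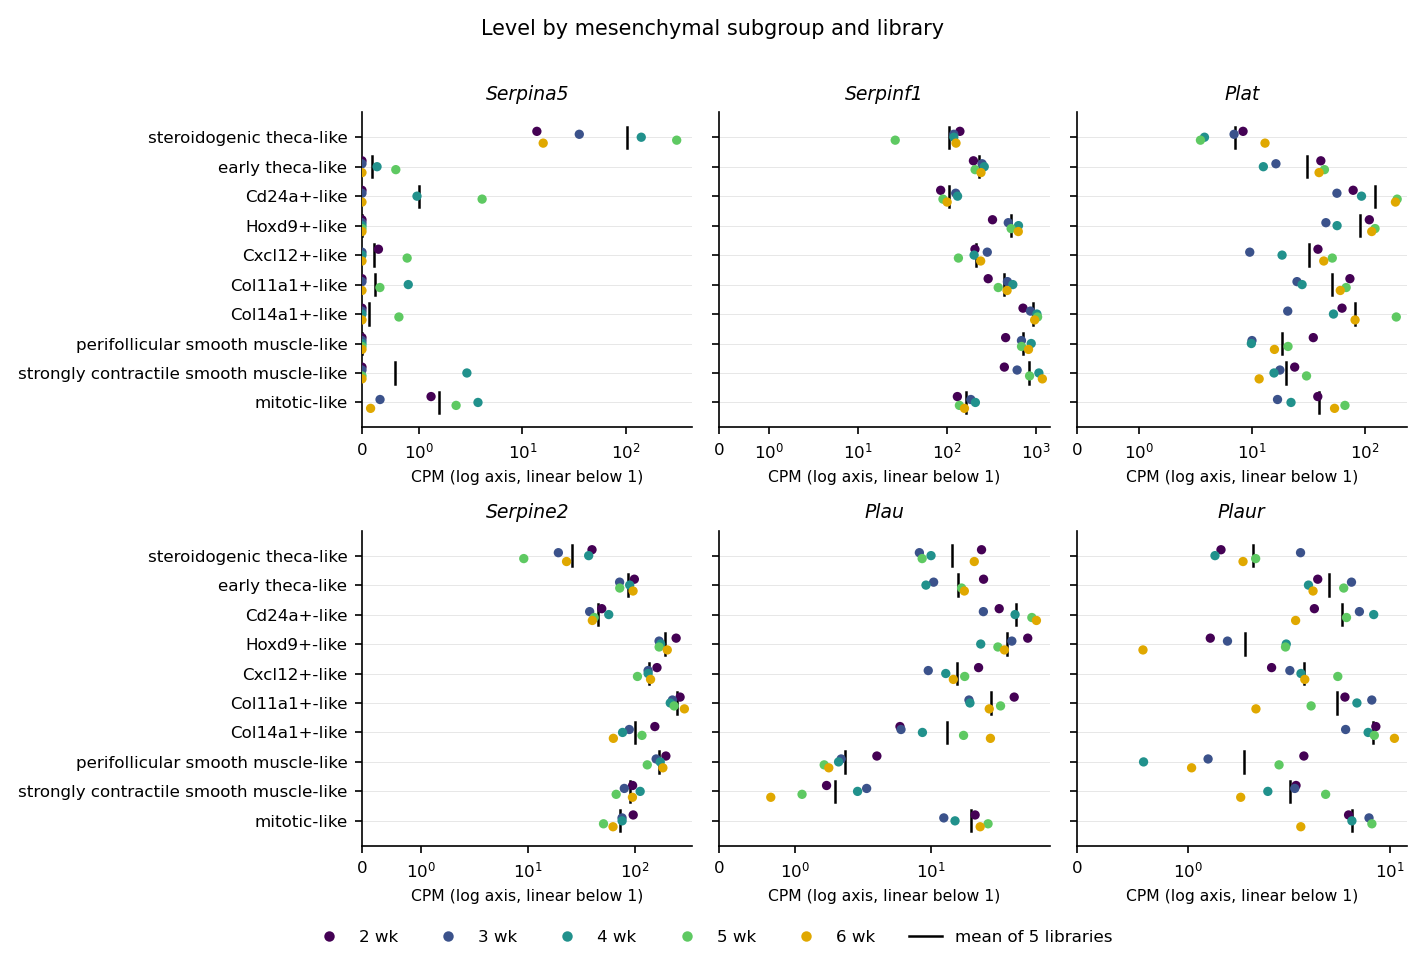
CPM (x axis, logarithmic above 1) of the 6 genes in 10 mesenchymal subgroups (y axis), 1 point per library coloured by age and a black line at the mean. Serpina5 is found in steroidogenic theca-like cells (13.8 to 312 CPM), whereas Serpinf1 is highest in Col14a1+-like and the smooth muscle-like subgroups.

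The theca-like, stromal-like and smooth muscle-like classes were clustered together to place theca among its neighbours. In this fit of 12467 genes, 44.1% were called between steroidogenic theca-like and early theca-like cells, and 62.7% between steroidogenic theca-like cells and the mean of the other subgroups. Serpina5 was at 13.8, 35.5, 141.5, 312 and 15.9 CPM in steroidogenic theca-like cells and at 0, 0, 0.263, 0.590 and 0 CPM in early theca-like cells. The fitted fold between them depends on the prior count where a group is at 0, so only the call is given (edgeR adjusted p = 1.043e-17). Serpine2, Plat, Plaur and Serpinf1 went the other way, lower in steroidogenic than in early theca-like cells in 5 of 5 libraries. Their log2 differences were -1.94 ± 0.18, -2.35 ± 0.34, -1.35 ± 0.29 and -1.23 ± 0.23 (edgeR adjusted p = 6.843e-12, 2.337e-07, 0.0001873 and 2.109e-05). The Plau difference did not pass (-0.32 ± 0.25, edgeR adjusted p = 0.3108). In these contrasts the steroidogenic theca-like group pools clusters 8 and 11. At 2, 3 and 6 wk cluster 11 had more cells (106, 158 and 104) than cluster 8 (61, 123 and 49). The 6 theca markers summed to only 86.0, 112 and 145 CPM in cluster 11 at those ages, so its name is weak there.

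Outside theca, the subgroups divided the remaining genes. Plat was highest in Cd24a+-like cells (79.1, 56.8, 93.7, 194 and 187.5 CPM) and Hoxd9+-like cells (110, 45.3, 56.9, 124 and 115.5 CPM), which overlapped with each other and with Col14a1+-like cells (20.8 to 190.7 CPM), and lowest in steroidogenic theca-like cells (3.50 to 13.1 CPM). Plau had means of 42.5 and 36.0 CPM in Cd24a+-like and Hoxd9+-like cells, which overlapped with Col11a1+-like cells (19.1 to 41.0 CPM), and stood at 0.682 to 4.01 CPM in the strongly contractile and perifollicular smooth muscle-like subgroups, separate from all others. Serpinf1 was highest in Col14a1+-like cells, at 713, 865, 1021, 1040 and 964 CPM, and in the strongly contractile and perifollicular smooth muscle-like subgroups (means of 829.8 and 706 CPM), which overlapped. Serpine2 had its mesenchymal maximum in Col11a1+-like cells, with 216 to 293 CPM, and had 9.15 to 39.9 CPM in steroidogenic theca-like cells.

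**Figure D4:**
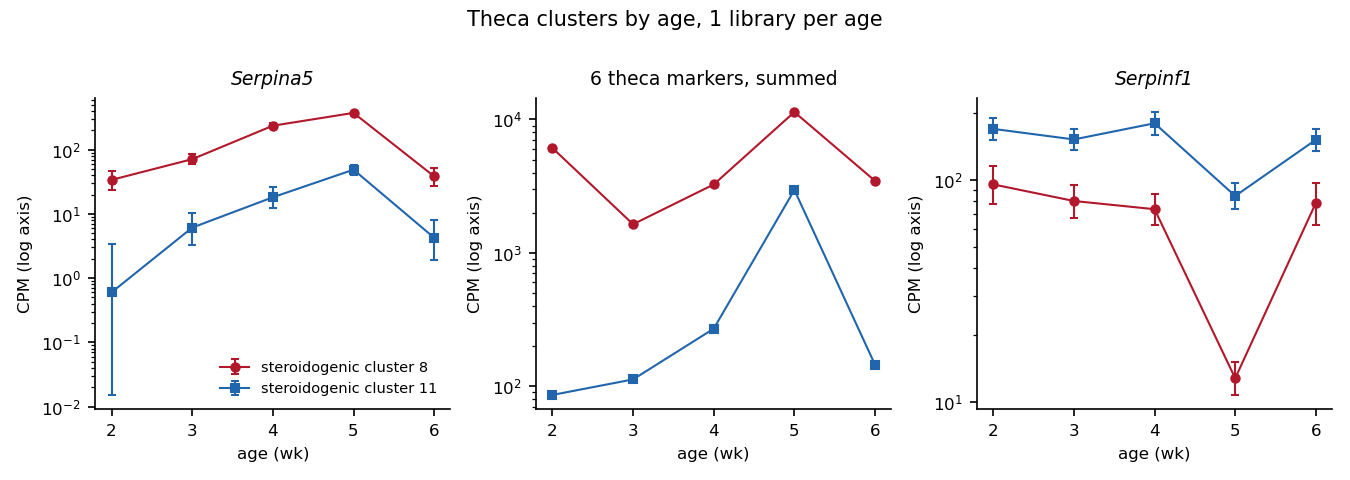
Left, Serpina5 CPM by age in the 2 steroidogenic theca-like clusters, with exact Poisson 95% intervals. Middle, the summed CPM of 6 theca markers in the same cells. Right, Serpinf1 CPM with the same intervals. All y axes are logarithmic, with 1 library per age. Serpina5 is highest at 5 wk in both clusters (373 and 48.7 CPM), and Serpinf1 in cluster 8 is lowest there (12.8 CPM).

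The steroidogenic theca-like name covered 2 clusters that differed in Serpina5. Cluster 8, led by Cyp11a1 and Cyp17a1, the first enzymes of steroid and androgen synthesis, had 33.8, 71.1, 236, 373 and 38.4 CPM from 61, 123, 173, 483 and 49 cells. Cluster 11, led by Cpa1, Sct and Stc1, had 0.601, 6.11, 18.2, 48.7 and 4.25 CPM from 104 to 158 cells. In the 4 libraries with enough UMIs for a ratio, cluster 8 was 7.65 to 13.0 times higher. The theca markers differed between these clusters too: the 6 summed to 1637 to 11360 CPM in cluster 8 and to 86.0, 112, 270, 2960 and 145 CPM in cluster 11, which met the naming rule but had none of them among its top 10 genes. Thinned to 3000 UMIs and pooled over libraries, 45.5% of cluster 8 cells had a Serpina5 UMI, against 3.87% of cluster 11 cells and 0.09% of granulosa-like cells. The pools differ in age: the 5 wk library, highest in Serpina5, gave 483 of 889 cluster 8 cells and 118 of 613 cluster 11 cells. The opposite order was seen for Plat, at 1.37 to 5.48 CPM in cluster 8 and 6.89 to 17.0 CPM in cluster 11, with no overlap, and for Serpinf1, which was lower in cluster 8 in every library. Plau was lower in cluster 8 in 4 of 5 libraries.

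Serpina5 and the theca markers followed the same course over age only in part. In cluster 8 both rose from 3 to 5 wk and fell at 6 wk, but they differed at 2 wk. In cluster 8 the 6 theca markers summed to 6109, 1637, 3254, 11360 and 3462 CPM, so the 2 wk library was second in markers and lowest in Serpina5, at 33.8 CPM (37 UMIs), next to 38.4 CPM at 6 wk (42 UMIs). From 2 to 5 wk Serpina5 in all theca-like cells stood at 2.26 (95% interval 1.58 to 3.30), 9.12 (6.62 to 12.9) and 19.1 times (14.0 to 26.8) its 2 wk level, and at 6 wk at 1.05 times (0.684 to 1.63). The class pools clusters whose shares changed with age. Within cluster 8 alone, which grew from 61 cells at 2 wk to 483 at 5 wk, the ratios were 2.10 (1.44 to 3.12), 6.96 (4.98 to 10.01), 11.02 (7.98 to 15.7) and 1.13 (0.711 to 1.81). These intervals cover counting error only. The 5 wk library had 607 theca-like cells against 142 to 289 in the others, and the low Serpinf1 of the class at that age (24.4 CPM, against 109 to 131 CPM) was found in both clusters, at 12.8 against 73.6 to 95.1 CPM in cluster 8 and 84.4 against 151 to 179 CPM in cluster 11.

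**Figure D5:**
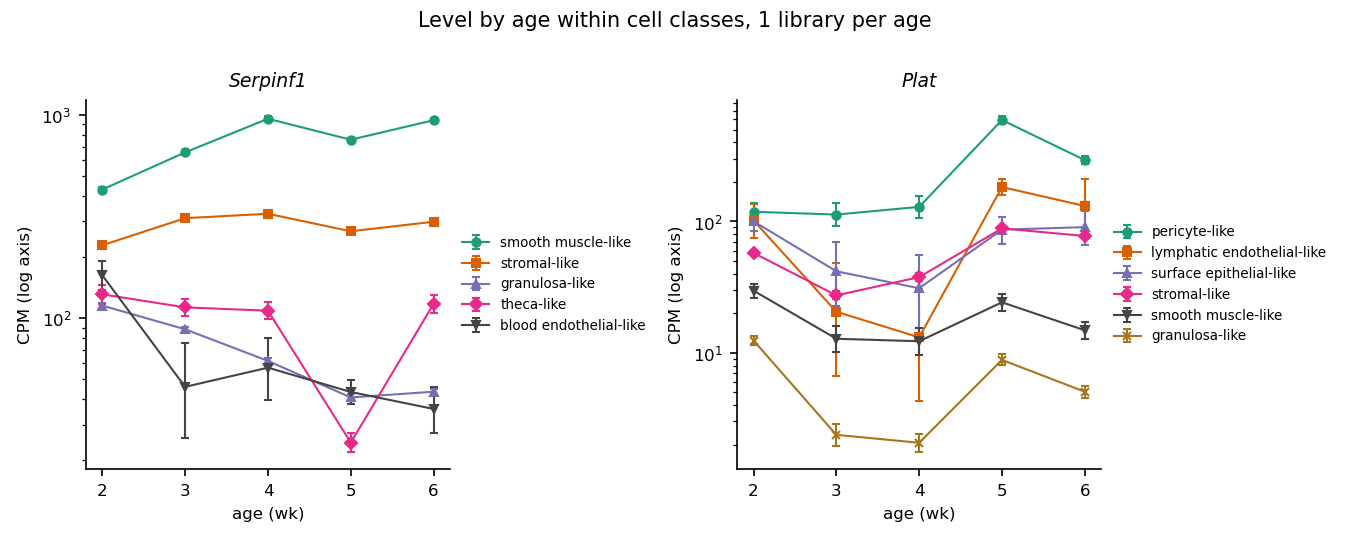
CPM (y axis, logarithmic) of Serpinf1 (left) and Plat (right) by age (x axis) in marker-named classes, with exact Poisson 95% intervals and 1 library per age. Serpinf1 is lower at each later age than at 2 wk in granulosa-like cells and higher in smooth muscle-like and stromal-like cells, and Plat is lowest at 3 or 4 wk in each of the 6 classes drawn.

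With 1 library per age, differences between ages were described by ratios and not tested. Of 188 ratios to the 2 wk library across genes and classes, 110 had a counting interval that left out 1. The same count was not made over all genes, so it shows nothing particular to these 6. Serpinf1 in granulosa-like cells stood at 115.5, 88.3, 61.7, 40.8 and 43.5 CPM, and at 6 wk was 0.377 times its 2 wk level (0.361 to 0.393). The mix of stages also changed, from 318 to 81 primordial-like and 795 to 386 primary-like cells between 2 and 6 wk, and from 349 to 986 antral-like and 79 to 931 remodeling-like cells. Within stages the 6 wk ratio was 1.16 (0.979 to 1.38) in primordial-like, 0.988 (0.910 to 1.07) in primary-like and 0.845 (0.743 to 0.960) in secondary-like cells, but 0.262 (0.213 to 0.322) in antral-like, 0.277 (0.251 to 0.306) in mitotic and 0.174 (0.138 to 0.222) in remodeling-like cells. In smooth muscle-like cells the ratio went the other way, 2.19 (2.11 to 2.28).

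Plau had its granulosa maximum at 2 wk. Its ratios to 2 wk were 0.443, 0.273, 0.596 and 0.418 in granulosa-like cells, with every interval under 1, and in antral-like cells alone they were 0.2005, 0.108, 0.289 and 0.196. Plat in granulosa-like cells as a class stood at 0.191 and 0.167 times at 3 and 4 wk and at 0.713 and 0.408 at 5 and 6 wk, but 130 of its 679 UMIs at 2 wk came from 3 cells with oocyte markers, and the mix of stages also changed with age. Within stages the 5 wk ratio was 1.55 (1.03 to 2.26) in primordial-like and 1.64 (1.21 to 2.20) in primary-like cells, and 0.204 (0.0885 to 0.433) in antral-like cells. A similar dip at 3 and 4 wk was seen in stromal-like cells (0.475 and 0.654, against 1.54 and 1.35 at 5 and 6 wk), while pericyte-like cells showed none (0.952 and 1.09) and stood at 5.00 (4.20 to 5.98) and 2.48 (2.07 to 2.97) times at 5 and 6 wk. The 2, 3 and 4 wk matrices came from an earlier Cell Ranger version than the 5 and 6 wk matrices, so version and age cannot be told apart at that step. Serpine2 in granulosa-like cells stood at 0.879 to 0.967 times its 2 wk level, but at 0.214 to 0.617 times in pericyte-like and 0.691 to 0.897 times in stromal-like cells.

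Plat was also high in some rare cells. Rete ovarii-like cells, which were outside the contrasts and belong to the tubules at the ovarian hilum, had 373, 255, 90.6 and 0 CPM from 54, 31, 5 and 1 cells at 2, 3, 4 and 5 wk, and 333.1 CPM over all 91 cells (377 UMIs). Cells with oocyte markers were few. There were 19 cells that carried at least 3 of 5 oocyte markers, 14 of them with Plat, and the 8 at 2 wk all had it, with 148 of the 194 Plat UMIs. A group of 3 cells at 2 wk, with all 5 markers and 16972 to 44780 UMIs, had 1519, 1867 and 1709 CPM from 68, 33 and 29 UMIs. The 3 cells with all 5 markers at 5 and 6 wk, of 120333 to 376555 UMIs, had 45.2, 56.8 and 91.4 CPM. A 3 wk cell with all 5 markers had 129 CPM from 2 UMIs. The 6 cells with all 5 markers at 2, 5 and 6 wk formed granulosa cluster 16, were counted in the granulosa-like class of the class contrasts and held 171 of its 1735 Plat UMIs, but were in none of the named stages. The other cells at 2 wk, with 3 or 4 markers, had 63.1 to 254 CPM in clusters of stromal-like or smooth muscle-like cells, and whether they were mixed droplets was not tested. Tissue-type plasminogen activator is known as a gene of growing oocytes, whose mRNA is stored and translated at maturation.

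The wider pathway was read from 24 further genes, 18 of which had at least 200 UMIs. Plasminogen itself (Plg) had 8 UMIs in all, so its RNA was at the limit of detection in these ovaries. Of 17 pathway genes in the class fit, 2 were higher and 14 lower in granulosa-like cells (median log2 difference -1.17, against 0.05 over all genes). In stromal-like cells 11 were higher and 2 lower (0.86 against 0.02). The granulosa-like contrast called 66.6% of all genes and the stromal-like contrast 47%. In pericyte-like cells, which led the classes tested in Plat, 8 were higher and 2 lower (0.46 against -0.03), in a contrast that called 37.2% of all genes. The higher genes included Serpini1 (neuroserpin, an inhibitor of tissue-type plasminogen activator), at 82.8 to 223 CPM against at most 14.2 CPM in any other class, and Vtn (vitronectin, a ligand of the urokinase receptor), at 52.6 to 96.1 CPM against at most 11.1 CPM. Their contrasts were 6.31 and 7.18 log2 units (edgeR adjusted p = 3.326e-27 and 3.248e-21).

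Among other inhibitors and clearance receptors, Serping1 (C1 inhibitor) was highest in surface epithelial-like cells, at 372 to 928 CPM. Vldlr, a receptor that takes up protease and serpin complexes, reached 196 to 251 CPM in smooth muscle-like cells. Thbd (thrombomodulin) and Procr, which act in the protein C pathway that Serpina5 is named for, had means of 81.0 and 93.6 CPM in blood endothelial-like and 87.2 and 94.7 CPM in lymphatic endothelial-like cells, and in theca-like cells 39.7 and 1.98 CPM. Between remodeling-like and antral-like cells 7 of 16 pathway genes were higher and 2 lower (median 0.57 log2 units, against -0.01 over all genes), in a contrast that called 35.5% of all genes. The higher ones included the plasminogen-binding pair Anxa2 (1.76 log2 units, edgeR adjusted p = 1.359e-09) and S100a10 (1.42, edgeR adjusted p = 5.792e-09).

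The genes closest in pattern were found by the Pearson correlation of log2(CPM + 1) over 26 classes, stages and subgroups among 14863 genes, as a description. The groups share libraries and some share cells, so no p is given. Serpina5 was closest to Mgat4c (r = 0.989), Bpifb1 (0.984) and Aqp2 (0.973), and Serpine2 to Ephx2 (0.944), Mras (0.941) and Spsb4 (0.938). Plaur was closest to Sdcbp (0.919), Vav3 (0.917) and Ppp1r9b (0.911), Plat to Abhd16a (0.890) and Tns2 (0.886), and Serpinf1 to Lmntd1 (0.888), Col4a3 (0.853) and Itgbl1 (0.853). Plau had the loosest matches, Sde2 (0.715), Gpalpp1 (0.698) and Gmfb (0.691).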

How the data were processed

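Single-cell 3-prime RNA-seq was run on trypsin-dissociated ovarian cells, 1 library per age. The deposited values are raw UMI counts per gene and cell that the authors made with Cell Ranger on mm10, per the file headers with version 3.1.0 for 2, 3 and 4 wk and version 6.0.1 for 5 and 6 wk. The submitters' processing notes name Cell Ranger 3.1.0 and Seurat 4.1.0.

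Cells were integrated and clustered with Seurat 5.3.0 (2000 features, 30 components, resolution 1) and named where at least 3 markers were each found in 10% of a cluster's cells at 1.5 times the median cluster. These limits were set after the clusters were seen, and rebuilt names may differ from the study's. Clusters with over 40% of cells called as doublets by Scrublet (scanpy 1.11.5, 2.08% to 5.01% of cells per library) or with a median UMI count under 33% of their libraries' were left unnamed, and other called doublets were kept. Subclusters were named by a similar rule at 1.2 times the median cluster, in which the mitotic name came before any other. Granulosa cluster 4 (1416 of the 4441 mitotic cells), led by Cdc6, Uhrf1 and E2f1, was named so although its mean marker score was higher for the secondary list.

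UMIs were summed per group and library and given as CPM with exact Poisson 95% intervals. Ratios have exact intervals conditional on both counts. Shares of cells have exact binomial intervals after thinning to 3000 UMIs, and the limit given beside a count of 0 is 3 cells of the total. All of these cover counting error only. Groups were compared with the quasi-likelihood test of edgeR 4.0.16 (TMM, filterByExpr, library block, Benjamini-Hochberg adjustment over all genes tested, threshold 0.05), where the pairing comes from cells of 1 library sharing mice and preparation. Mitotic cells were left out of the mean of the other mesenchymal subgroups. Ages could not be tested. The spread between libraries also holds age.

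The test was checked on simulated counts. The alternatives were DESeq2 1.42.0, its size factors, no low-count filter, no block, each library left out, doublets out, a cell filter (1000 genes, under 10% mitochondrial UMIs), resolution 0.6, no integration, the genes kept among the clustering features, other summaries and thinning to 1500 UMIs. The genes named are the 6 members, the pathway list with at least 200 UMIs, and the 3 genes closest in pattern to each member. A few genes that this rule names are not reported here. Members and lists were chosen with earlier results of these data known. Genes named as leading a cluster were read from its top 10 by fold.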

Additional observations from a re-analysis of the deposited data

Results flagged for a closer look

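In 54 combinations of gene and class, 6 libraries stood apart from the other 4 by Dixon's criterion. Chance alone meets it in about 1 in 20 groups of normally distributed values, which sparse counts from 5 ages are not. Serpinf1 in theca-like cells was at 24.4 CPM at 5 wk, with the nearest other library at 109 CPM. Serpinf1 in blood endothelial-like cells was at 163 CPM at 2 wk, with the nearest at 57.2 CPM, and in hematopoietic-like cells at 152.0 CPM at 4 wk, with the nearest at 67.6 CPM. The remaining cases were Serpina5 at 1.13 CPM in smooth muscle-like cells at 4 wk (7 UMIs), at 1.78 CPM in pericyte-like cells at 5 wk (3 UMIs) and at 0.389 CPM in blood endothelial-like cells at 5 wk (2 UMIs), where most other libraries had none. In the pericyte-like and blood endothelial-like cases no other library had a UMI, which meets the criterion by construction.

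Serpinf1 moved in opposite directions with age in different classes, a difference that was not tested because each age has 1 library. The ratio of 6 wk to 2 wk was 1.31 in stromal-like and 2.19 in smooth muscle-like cells, and 0.377 in granulosa-like and 0.220 in blood endothelial-like cells.

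Outside the groups compared, Plat stood at 333.1 CPM in rete ovarii-like cells, which were found mainly at 2 and 3 wk. Serpine2 stood at 1148 CPM in the unnamed granulosa cluster 2, inside the range of the secondary-like and antral-like cells.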

How the results depend on the processing

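Without the replicate block (the library), the granulosa stage fit called 8 rather than 13 member tests, 26 rather than 41 pathway tests and 13263 rather than 24315 gene tests summed over its contrasts, and the block changed no member call between classes or mesenchymal subgroups. Of 989 repeated member tests, 966 stayed on the same side of the threshold, 12 gained a call and 11 lost one. Of 594 repeated class levels 590 moved by no more than the SD of the 5 libraries. Leaving 1 library out cannot move a mean of 5 that far, so those repeats say nothing about stability. That SD also holds age. Serpina5 in theca-like cells went from 106 to 54.9 CPM without the 5 wk library and counted as unmoved. No called member test changed direction, and the sign changed only for values that did not pass. Ratios between ages were less stable, with 140 of 912 moved beyond their interval and 12 reversed. With doublets left out, the 6 wk to 2 wk ratio of Serpine2 was 1.60 in surface epithelial-like and 1.095 in theca-like cells. At resolution 0.6 the 3 wk to 2 wk ratio of Plau in theca-like cells was 1.14. Without integration, stromal-like ratios to 2 wk were 1.06 for Plau at 4 wk, 0.924 and 0.898 for Plaur at 3 and 5 wk, 0.860 for Serpina5 at 5 wk and 1.03 for Serpine2 at 6 wk, and Serpinf1 in theca-like cells at 4 wk was 1.04. With the mean of single-cell CPM, the ratio was 0.659 for Plat in lymphatic endothelial-like cells at 5 wk, 0.991 for Plaur in blood endothelial-like cells at 6 wk and 1.07 for Serpinf1 in hematopoietic-like cells at 5 wk. The cause was not tested. Thinning to 1500 UMIs moved 41 of 60 shares, but a lower depth by itself lowers the share of cells with a UMI, so this count does not measure stability. Depth limits Plaur and Serpina5 most, and the small classes (14 lymphatic endothelial-like cells at 6 wk) limit their levels.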
